A study of Homo sapiens with 3 samples.

Results

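The SERPINB protease inhibitors described here are 10 clade B serpins that have been studied in keratinocytes. Their rows in the gene count table were found by matching Ensembl identifiers to the symbols SERPINB1, SERPINB2, SERPINB3, SERPINB4, SERPINB5, SERPINB6, SERPINB7, SERPINB8, SERPINB9 and SERPINB13. All 10 symbols had a row, out of 58735 genes in the table, and 8 of the 10 reached 1 CPM, a count relative to its library total, in some library. The cells were HaCaT, an immortalised line of human epidermal keratinocytes labelled wild type, and total RNA was sequenced from 3 libraries of 1 culture condition each. The control library came from cells exposed to no particle, the CB library from cells given carbon black at 25 µg/mL and the S1650b library from cells given the particulate matter sample S1650b at 50 µg/mL. All conditions lasted 24 h, in DMEM without serum. HaCaT is a single long-cultured line, so the libraries are a model of a keratinocyte culture and not of stratified skin.

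Serpins are protease inhibitors that work as bait: the target protease cuts an exposed loop of the serpin, the serpin snaps into a new shape, and the protease stays trapped and inactive. Clade B serpins lack a classical secretion signal and act mostly inside the cell, where they meet lysosomal cathepsins, granule proteases and other proteases that leak or are released into the cytoplasm. In human epidermis several of them are abundant in the upper layers, and inherited loss of SERPINB7 or SERPINB8 causes disorders of cornification. The series is concerned with the barrier, DNA damage and oxidative stress in keratinocytes exposed to particles, and the comparisons here give the level of each inhibitor in the presence and absence of each particle.

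Each group holds 1 library, so no difference below has a replicate check, no P value can be given, and treatment and library cannot be told apart. The libraries hold between 20417744 and 20946139 gene counts. Folds are ratios of CPM scaled by TMM, a factor that evens out library composition, and are followed by a 95% exact interval that covers counting error only. PCR copies were not marked by molecular identifiers and can be counted more than once, so even that error may be understated. A gene is called higher or lower where the fold reaches 1.5 and the interval does not include 1, among the 14709 genes that reach 1 CPM in some library. Keratinocyte markers were present, with counts for 10 of 10 in every library, at a summed scaled CPM of 16105 in the control, 14680 with CB and 8130 with S1650b. Within that list 4 of 10 markers were lower and 1 higher in S1650b than in the control, against 19.4% and 22.0% of all genes tested. KRT6A, KRT5, KRT14 and COL17A1 were 3.89-fold, 3.15-fold, 2.91-fold and 1.60-fold lower and DSG3 1.75-fold higher. The median log2 fold over the 10 was −0.12. Summed markers of other cell types were 93.2, 30.4 and 13.0 scaled CPM for fibroblasts, 58.4, 32.5 and 48.0 for endothelium and 10.1, 8.36 and 9.58 for melanocytes. TEK, KDR, TYR, TYRP1 and DCT were at 0 in every library, but other markers of these types had counts. The endothelial marker CDH5 had 1013, 503 and 920 counts in the control, CB and S1650b, and the melanocyte marker PMEL had 99, 65 and 42. The fibroblast sum in the control was mostly DCN and COL3A1, with 1067 and 638 counts, against 153 and 339 with CB and 41 and 83 with S1650b. The number of fibroblast markers with a count went the other way, at 4 of 8 in the control, 8 with CB and 7 with S1650b. For leukocytes the sum was at most 0.313 scaled CPM, with 6 of 12 markers at 0 in every library. The part of these marker levels in the SERPINB values was not tested. In bulk RNA, fewer cells of a type and less RNA per cell cannot be told apart.

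The SERPINB genes lie in a cluster on chromosome 18 and a smaller cluster on chromosome 6. Stretches upstream of SERPINB13, SERPINB2 and SERPINB7 are shown because these are the 3 well-counted genes whose levels differed most between libraries. They are taken from RefSeq promoters on build GRCh38.p14, forward strand, 5′ to 3′, and run from 200 to 51 bases before the RefSeq start. SERPINB7 has 3 RefSeq starts, and the stretch shown belongs to the most upstream start that holds the letters marked below, while the start furthest upstream has 0 matches. GENCODE 29 starts other transcripts of these genes further upstream, so the windows lie inside the genes as that annotation spans them. The stretches are chr18:63587143-63587292 for SERPINB13, chr18:63887505-63887654 for SERPINB2 and chr18:63775218-63775367 for SERPINB7. Capitals mark the letters TGANTCA, which are their own reverse complement. They are a looser form of TGACTCA or TGAGTCA, the usual motif of AP-1 (dimers of JUN and FOS proteins). The stretch of SERPINB13 holds a usual form, while the marked letters of SERPINB2 (TGAATCA) and SERPINB7 (TGATTCA) are not usual forms. A TGAGTCA of SERPINB7 lies 39 to 33 bases before this start, outside the stretch shown.
SERPINB13: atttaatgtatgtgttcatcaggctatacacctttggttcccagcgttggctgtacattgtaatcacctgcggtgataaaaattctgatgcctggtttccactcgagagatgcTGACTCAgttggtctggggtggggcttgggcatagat
SERPINB2: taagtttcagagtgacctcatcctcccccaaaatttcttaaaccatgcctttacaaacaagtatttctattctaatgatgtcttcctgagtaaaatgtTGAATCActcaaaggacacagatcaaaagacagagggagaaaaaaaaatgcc
SERPINB7: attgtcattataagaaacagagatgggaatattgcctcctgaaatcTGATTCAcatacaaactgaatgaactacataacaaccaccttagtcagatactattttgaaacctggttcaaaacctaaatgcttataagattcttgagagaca

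All 10 genes had a RefSeq promoter, with 15 starts between them because SERPINB6 has 4 and SERPINB7 has 3. The looser AP-1 letters, TGANTCA, occurred in the 250 bases before 6 of these 15 starts (of SERPINB2, SERPINB5, SERPINB7, SERPINB8 and SERPINB13), and in 6.57% of all 35116 promoters in the table. At SERPINB2 and SERPINB5 the only match was TGAATCA, so this count takes in more than the usual AP-1 motif. GCGTG, the core of the element bound by the aryl hydrocarbon receptor, occurred on either strand at 8 of 15 starts (of SERPINB1, SERPINB5, SERPINB6, SERPINB9 and SERPINB13), some of which overlap, and in 32.2% of all promoters. TGACNNNGC, the core bound by NRF2, occurred at 1 of 15 starts, that of SERPINB9, and in 10.9% of all promoters, and it can overlap the AP-1 letters. TATAAA occurred at 4 of 15 starts (of SERPINB2, SERPINB7, SERPINB8 and SERPINB9) and in 10.7% of all promoters. These are matches of letters, and binding was not measured.

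SERPINB3 and SERPINB4 are neighbours of much alike sequence, and a stretch where they differ often is shown because their likeness can limit what their counts say. Their coding sequences, from GENCODE 29 transcripts, are 1173 bases each and match at 1117 positions (95.2%), and 247 of the 250 bases before their starts are the same. Most differences are scattered, so that 3.40% of the 100-base stretches of the SERPINB3 transcript also occur in SERPINB4, and 3.45% of those of SERPINB4 occur in SERPINB3. Most stretches of that length thus belong to only 1 of the pair. The 90 coding bases from position 970 to 1059, counted from 1 at the start codon, hold 13 of the 56 differences, which are in capitals.
SERPINB3: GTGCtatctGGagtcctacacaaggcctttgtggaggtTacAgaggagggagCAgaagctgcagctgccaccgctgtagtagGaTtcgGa
SERPINB4: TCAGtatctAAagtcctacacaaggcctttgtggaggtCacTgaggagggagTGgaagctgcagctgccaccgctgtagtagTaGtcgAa

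Levels are compared between genes per unit of gene length. FPKM, as deposited, are counts divided by gene length and by 1 divisor per library that differs from its count total. In the control library SERPINB5 was highest at 125 FPKM, followed by SERPINB13 at 67.0 and SERPINB1 at 38.3 FPKM. SERPINB2 came next at 23.9, SERPINB7 at 19.2 and SERPINB6 at 11.1 FPKM. SERPINB8 stood at 2.96, SERPINB3 at 0.596 and SERPINB4 at 0.501 FPKM, and SERPINB9 was listed at 0. Counting intervals of neighbours in this order did not overlap, except for those of SERPINB3 and SERPINB4. In the CB library the order was the same but for SERPINB7, which stood above SERPINB2 at 34.3 against 27.2 FPKM. In the S1650b library SERPINB13 was highest at 145 FPKM and SERPINB5 came second at 83.5 FPKM. SERPINB2 dropped there to the sixth place at 7.99 FPKM (7.30 to 8.73), with an interval that overlapped that of SERPINB6 at 8.67 FPKM (8.34 to 9.01). These levels divide by the joined length of all exons, which for SERPINB6 is 13201 bases against a median of 1372 for its coding transcripts. With the median length of coding transcripts in place of all exons, SERPINB6 would stand next after SERPINB5 and SERPINB13 in every library, at 107 in the control, 115 with CB and 83.4 with S1650b on the scale of FPKM. SERPINB2 would then stand above SERPINB7 in every library, at 86.2, 98.0 and 28.8 against 25.9, 46.3 and 15.0, and above SERPINB1 (45.3 and 42.1) in the control and CB. The median for SERPINB2 was only 762 bases, against 2155 for its longest coding transcript, while SERPINB7 had 1951 and 2203. That place of SERPINB2 thus depends in part on its short transcripts, and levels with the longest transcripts were not taken. The middle of the order depends on the length used.

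**Figure D1:**
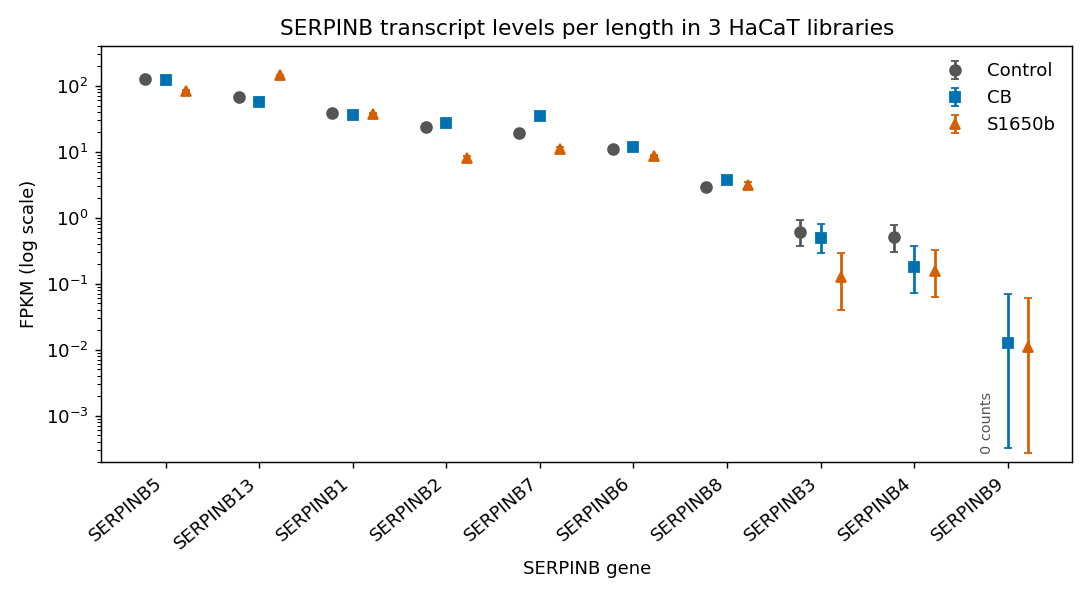
Level of each SERPINB gene in FPKM (log axis) in the control, CB and S1650b libraries, with 95% Poisson intervals for counting error; SERPINB9 had 0 counts in the control, which a log axis cannot show. SERPINB13 passes SERPINB5 in S1650b, and SERPINB2 and SERPINB7 are lower there than in the other libraries.

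With carbon black, 1 of the 8 SERPINB genes that passed the filter was higher than in the control and 0 were lower, against 4.7% higher and 10.7% lower among all genes tested. The one gene was SERPINB7. With S1650b, SERPINB13 was higher and SERPINB2, SERPINB3 and SERPINB7 were lower, which is 1 and 3 of 8 against 22.0% and 19.4% of all genes. In S1650b against CB, SERPINB13 was higher and SERPINB2, SERPINB3 and SERPINB7 were lower, beside a background of 26.3% higher and 20.6% lower. The 3 comparisons share libraries, and the particles were given at different doses. Median log2 folds over the 8 genes were −0.05 with CB and −0.47 with S1650b, beside −0.01 and −0.04 over all genes tested. SERPINB3 passed the filter in the control library alone, where it is highest, so the filter favours its lower calls, which also enter the medians. With a filter of 5 CPM, which SERPINB3 does not pass, 1 of 7 SERPINB genes was higher and 2 lower with S1650b than in the control. The shares of all genes were then 21.2% and 20.4%. SERPINB4 and SERPINB9 did not pass the filter of 1 CPM, so the counts out of 8 do not cover all 10 genes. Scaling by total counts moves the median of all genes by 0.20 (log2) for S1650b against the control and by 0.19 against CB. It changes the split of all called genes from 3236 higher and 2855 lower to 4289 and 1737 against the control, and from 3870 and 3024 to 4880 and 2054 against CB. For CB against the control the split was 691 and 1568, and 989 and 1430 from FPKM. The same SERPINB genes were called under each of these scalings.

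**Figure D2:**
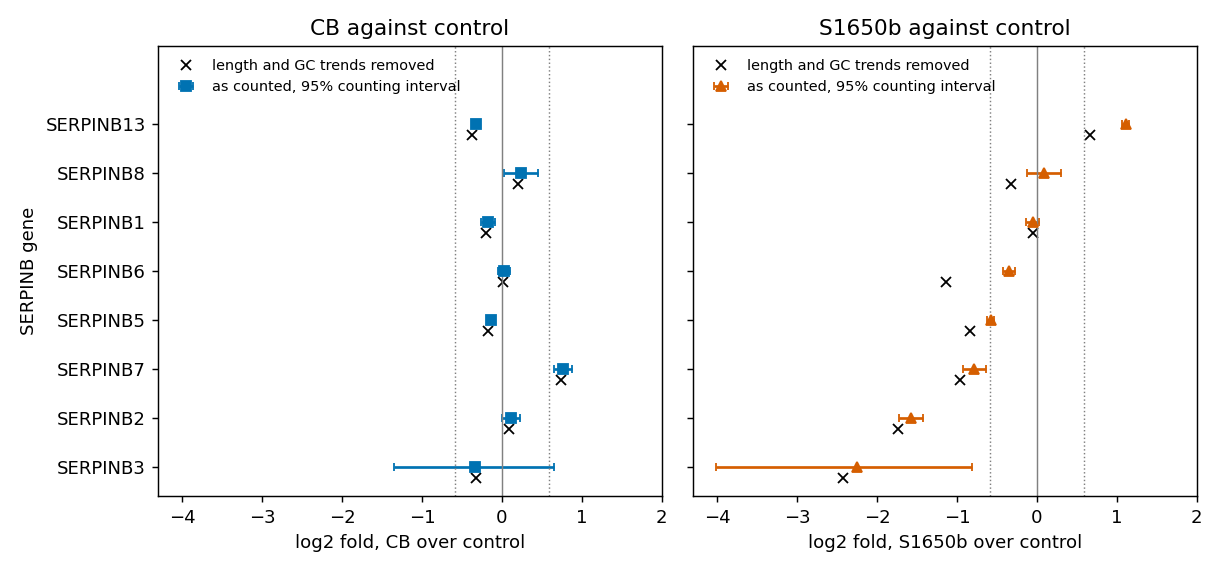
Log2 fold of the 8 SERPINB genes that passed the filter, for each particle against the control, with 95% counting intervals. Dotted lines mark the 1.5-fold rule and crosses mark the fold after trends with gene length and GC content across all genes were removed. The folds are of scaled CPM with no count added. SERPINB13 is the only gene past the upper line with S1650b, and SERPINB7 lies past the upper line with CB and past the lower line with S1650b.

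SERPINB13, also called headpin or hurpin, is a cytoplasmic inhibitor of the cysteine cathepsins K and L and was first described in HaCaT cells as a serpin repressed by ultraviolet light. Its counts were 6025 in the control, 4923 with CB and 14805 with S1650b, or 306, 245 and 663 scaled CPM. The S1650b library stood well above the others and the CB library was lowest. SERPINB13 was 2.16-fold higher with S1650b than in the control (2.10 to 2.23), at the 90.1 percentile of all tested genes, and 2.71-fold higher than with CB (2.62 to 2.80). With CB it was 1.25-fold lower than in the control (1.20 to 1.30), under the 1.5-fold rule. Genes of like length and GC content were also higher in the S1650b library. Among the 196 genes in the same eighths of length and GC as SERPINB13, the median log2 fold was 0.40 with S1650b, and 168 lay below the 1.11 of SERPINB13 and 28 above. With both trends removed SERPINB13 was 1.59-fold higher with S1650b than in the control.

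SERPINB3, squamous cell carcinoma antigen 1, inhibits papain-like cysteine proteases such as cathepsins L and S, and SERPINB4, its neighbour, inhibits chymotrypsin-like serine proteases such as cathepsin G and mast cell chymase. Both were scarce. SERPINB3 had 21 counts in the control, 17 with CB and 5 with S1650b, and SERPINB4 had 20, 7 and 7. SERPINB3 was 4.77-fold lower with S1650b than in the control (1.75 to 16.2) and 3.78-fold lower than with CB (1.34 to 13.1), and its CB to control fold was 0.792 (0.392 to 1.58). SERPINB4 reached 1 CPM in no library. Its level was 2.92-fold lower with CB (1.19 to 8.17) and 3.24-fold lower with S1650b (1.32 to 9.08) than in the control. Because a part of the reads may come from stretches that these copies share, their sum was also taken, at 41, 24 and 12 counts. The sum was 1.75-fold lower with CB (1.03 to 3.02) and 3.88-fold lower with S1650b (2.0 to 8.11) than in the control. Exons of SERPINB11 on the opposite strand overlap 34.9% of SERPINB3, and SERPINB11 had 0 counts in every library. The counter and strand setting are not known, so that 0 does not show the SERPINB3 count to be free of the overlap.

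SERPINB2 is the intracellular plasminogen activator inhibitor that blocks urokinase, and it is also found in the cornified envelope. It had 1302 counts in the control, 1439 with CB and 495 with S1650b, or 66.2, 71.6 and 22.2 scaled CPM. The control and CB libraries lay close together, and S1650b was far below them. SERPINB2 was 2.99-fold lower with S1650b than in the control (2.69 to 3.32), at the 3.14 percentile of all tested genes, and 3.23-fold lower than with CB (2.91 to 3.59). Its CB to control fold was 1.08 (1.00 to 1.17). Of the 202 genes of like length and GC, 192 lay above SERPINB2 with S1650b and 10 below, and with both trends removed it was 3.33-fold lower. Exons of SERPINB10 on the same strand cover 19.9% of the SERPINB2 exons, and SERPINB10 itself had 12, 4 and 0 counts in the control, CB and S1650b.

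SERPINB7, or megsin, is the inhibitor whose inherited loss causes Nagashima-type palmoplantar keratosis. It had 1001 counts in the control, 1741 with CB and 659 with S1650b, which is 50.9, 86.6 and 29.5 scaled CPM. The CB library was highest and the S1650b library lowest. SERPINB7 was 1.7-fold higher with CB than in the control (1.57 to 1.84), at the 96.6 percentile of all genes, and 1.72-fold lower with S1650b (1.56 to 1.91). Directly between the particles it was 2.94-fold lower with S1650b (2.68 to 3.22). A pattern of higher with CB and lower with S1650b was shown by 99 genes, 0.673% of those tested, and SERPINB7 was the only SERPINB gene among them. The reverse was shown by 219 genes (1.49%), with no SERPINB gene. Removing the length trend alone left SERPINB7 1.48-fold lower with S1650b, just short of the rule, and removing length and GC trends gave 1.94-fold lower. Against CB it stayed past the rule in both cases, at 2.61-fold and 3.34-fold lower.

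SERPINB8 inhibits the proprotein convertase furin, and its inherited loss causes an exfoliative ichthyosis. Its counts were 344 in the control, 415 with CB and 416 with S1650b, or 17.5, 20.6 and 18.6 scaled CPM. The libraries lay within a narrow range, with folds over the control of 1.18 with CB (1.02 to 1.37) and 1.06 with S1650b (0.921 to 1.23). After removal of the length and GC trends SERPINB8 was 1.25-fold lower with S1650b. Exons of HMSD and AC009802.1 overlap 10.7% of SERPINB8. HMSD had 34, 44 and 9 counts.

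SERPINB5, or maspin, has the serpin fold but does not inhibit proteases and is known as a suppressor of tumour invasion. It had the most counts of the family in the control (9756) and in CB (9086), and 7417 in S1650b, giving 496, 452 and 332 scaled CPM. Its level was lowest with S1650b, 1.49-fold under the control (1.45 to 1.54), and thus just outside the rule. It was 1.36-fold lower with S1650b than with CB (1.32 to 1.40), and 1.10-fold lower with CB than in the control (1.07 to 1.13). With length and GC trends removed SERPINB5 was 1.79-fold lower with S1650b than in the control and 1.60-fold lower than with CB, past the rule.

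SERPINB1, SERPINB6 and SERPINB9 form the chromosome 6 cluster and are best known as guards against granule proteases of leukocytes. SERPINB1 inhibits neutrophil elastase, cathepsin G and proteinase 3. It had 2349, 2125 and 2576 counts in the control, CB and S1650b, or 119, 106 and 115 scaled CPM. Its folds over the control were 0.885 with CB (0.834 to 0.939) and 0.966 with S1650b (0.913 to 1.02). SERPINB6, a cytoplasmic inhibitor of cathepsin G and trypsin-like proteases, had 2904, 3029 and 2581 counts, or 148, 151 and 116 scaled CPM. Its CB to control fold was 1.02 (0.970 to 1.07), and it was 1.28-fold lower with S1650b than in the control (1.21 to 1.35). This gene depends most on the length correction. With the length trend removed it was 1.85-fold lower with S1650b, and with GC removed as well 2.20-fold lower, but its 13201 bases of joined exons place it among long genes although its coding transcripts are short. SERPINB9, the inhibitor of granzyme B, had 0 counts in the control and 1 in each particle library. A count of 0 in the control allows up to 3 counts, or 0.152 scaled CPM, so no difference in SERPINB9 was detectable at this depth.

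Summed over the 10 genes, the SERPINB counts were 23722 in the control, 22783 with CB and 28962 with S1650b, and the makeup of that sum differed more than its size. The sum was 1.06-fold lower with CB (1.04 to 1.08) and 1.08-fold higher with S1650b (1.06 to 1.09) than in the control. Without SERPINB13, the other 9 genes were together 1.42-fold lower with S1650b than in the control (1.39 to 1.45), and 1.01-fold lower with CB (0.992 to 1.03). SERPINB13, the only gene called higher with S1650b, was left out after the values were seen. These folds depend on that choice. SERPINB5, which was not called, held 7417 of the 14157 remaining counts in S1650b. SERPINB13 held 25.4% of the family's counts in the control (24.8 to 26.0%, exact binomial), 21.6% in CB (21.1 to 22.1%) and 51.1% in S1650b (50.5 to 51.7%). The share of SERPINB5 was 41.1%, 39.9% and 25.6%. Shares of 1 sum are tied, so a larger share of SERPINB13 lowers the others even where their levels hold. SERPINB1, with a fold of 0.966 with S1650b, went from 9.90% in the control to 8.89% in S1650b. SERPINB2 held 5.49%, 6.32% and 1.71%, and SERPINB7 held 4.22%, 7.64% and 2.28%. Per length, SERPINB13 stood at 0.536 of SERPINB5 in the control, 0.471 with CB and 1.73 with S1650b. The ratio of SERPINB7 to SERPINB2 per length was 0.801 in the control (0.737 to 0.871), 1.26 in CB (1.18 to 1.35) and 1.39 in S1650b (1.23 to 1.56), where the intervals of the particle libraries overlap. With the median coding length, which is 762 bases for SERPINB2, that ratio was 0.30, 0.473 and 0.520. It was below 1 in every library with that length, and the longest coding transcripts were not used. Ratios within a library show unequal change of a pair, not which gene of the pair moved.

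**Figure D3:**
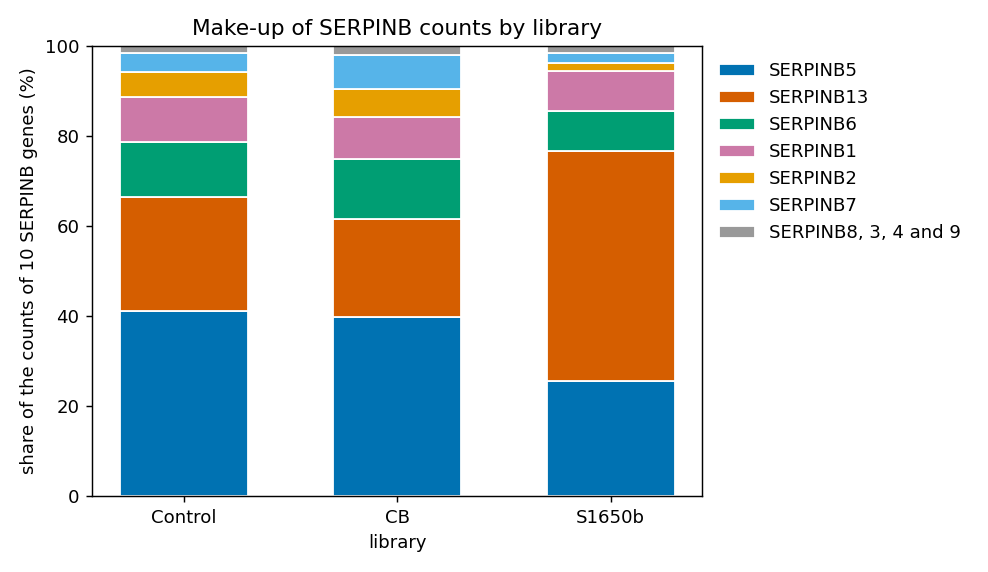
Share of the summed SERPINB counts held by each gene in the control, CB and S1650b libraries (stacked bars, percent). SERPINB13 takes 51.1% in S1650b against 25.4% in the control and 21.6% in CB.

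The chromosome 18 cluster spans 63476761 to 64019779 on GRCh38 (543 kb) and holds 10 SERPINB genes, of which SERPINB5, SERPINB12, SERPINB13, SERPINB4, SERPINB11, SERPINB3, SERPINB7, SERPINB2, SERPINB10 and SERPINB8 follow each other in that order. With S1650b the SERPINB13 gene (63586989 to 63604639) was higher than in the control, while SERPINB3, SERPINB7 and SERPINB2 downstream were lower. SERPINB5 upstream (1.49-fold lower) and SERPINB8 at the far end (a fold of 1.06) were not called. SERPINB10, SERPINB11 and SERPINB12, the clade members outside the set of 10, were near or at 0. SERPINB10 was at least 4.54-fold lower with S1650b than in the control, with 0 against 12 counts and a floor of 3 counts in the S1650b library, and the exact interval of the ratio, which also covers the error of the control count, ends at 3.16-fold lower. SERPINB12 had 1 count in the control and 0 in both particle libraries. The chromosome 6 cluster spans 2832332 to 2972165 (140 kb), with SERPINB1, SERPINB9 and SERPINB6 in that order, and SERPINB1 and SERPINB6 were not called in any comparison unless a length trend was removed, which called SERPINB6.

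Genes next to the clusters had both higher and lower levels with the particles. Around the chromosome 18 cluster, within 500 kb, PHLPP1 (an AKT phosphatase) was 1.57-fold lower with S1650b than in the control, HMSD was 4.29-fold lower on 9 against 34 counts, and VPS4B (an ESCRT ATPase) had a fold of 1.43, under the rule. BCL2, the apoptosis inhibitor, was 3.38-fold higher with CB than in the control on 38 against 11 counts. KDSR, a ceramide synthesis enzyme, had folds of 1.05 with CB and 1.01 with S1650b. Around the chromosome 6 cluster, RIPK1, a kinase of cell death signalling, was 1.53-fold higher with S1650b than in the control and MYLK4 1.79-fold higher. PSMG4, a proteasome assembly chaperone, was 1.60-fold lower there. TUBB2A, a beta tubulin, had the SERPINB7 pattern, at 1.66-fold higher with CB and 1.85-fold lower with S1650b. MYLK4 and SLC22A23 were 2.30-fold and 1.66-fold lower with CB. WRNIP1, NQO2 and BPHL were within 1.5-fold of the control in both particle libraries.

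**Figure D4:**
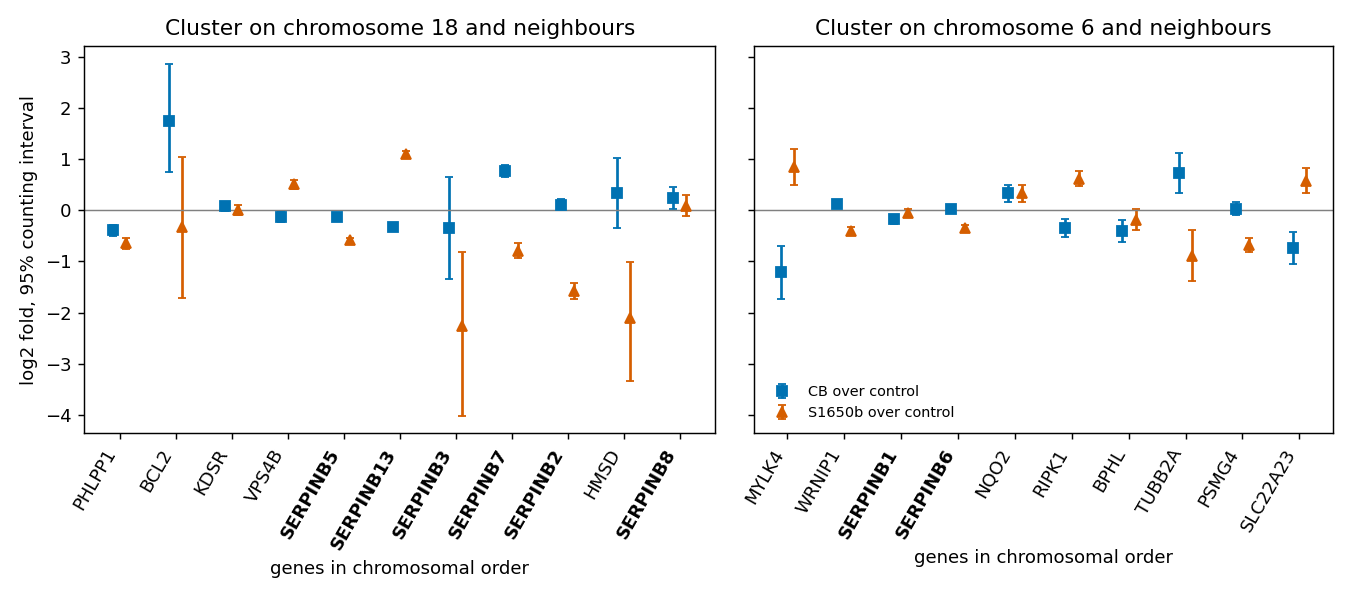
Log2 fold against the control of the SERPINB genes that passed the filter (bold) and their protein-coding neighbours in chromosomal order, for the chromosome 18 and chromosome 6 clusters, with squares for CB, triangles for S1650b and bars for 95% counting intervals. With S1650b, SERPINB13 lies above 0 between SERPINB5 and SERPINB3, which lie below 0.

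Proteases were counted by class, and the classes hold kinds that serpins inhibit as well as others. Each count is to be read beside the shares of all genes tested, 4.7% higher and 10.7% lower with CB and 22.0% higher and 19.4% lower with S1650b. Of 13 cathepsins and legumain, all of which passed the filter, 0 were higher and 4 lower with CB, and 2 were higher and 6 lower with S1650b than in the control. CTSS, the cathepsin S of antigen processing, was 2.77-fold lower with CB (2.32 to 3.32) and 2.46-fold lower with S1650b (2.09 to 2.91). CTSF, CTSO and CTSD, the last an aspartic protease of lysosomes, were 2.50-fold, 1.93-fold and 1.58-fold lower with CB. CTSO went the other way with S1650b, at 1.93-fold higher than in the control (1.62 to 2.30) on 427 against 195 counts. With S1650b CTSB was 2.12-fold lower and CTSV, a cathepsin L relative of epithelia, 2.26-fold lower. CTSK, a target of SERPINB13, was 3.25-fold higher with S1650b (2.03 to 5.41) on 85 against 23 counts. CTSL, the other cathepsin named above as its target, had 1276, 1488 and 1633 counts and a fold of 1.13 with S1650b, and was not called. The median log2 fold of the list was −0.40 with CB and −0.51 with S1650b, beside −0.01 and −0.04 over all genes.

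Of 23 serine proteases 15 passed the filter, with 1 higher and 4 lower with CB and 1 higher and 9 lower with S1650b. KLK11, a kallikrein of the upper epidermis, was 2.91-fold lower with CB (2.37 to 3.58) and 7.95-fold lower with S1650b (5.93 to 10.8). KLK13 and PLAT, the tissue plasminogen activator that SERPINB2 can inhibit, were 4.79-fold and 2.83-fold lower with S1650b, and the membrane protease TMPRSS4 was 2.49-fold lower. PLAU, the urokinase that SERPINB2 blocks, had folds of 0.732 with CB and 1.16 with S1650b over the control, and was 1.59-fold higher with S1650b than with CB. PRSS8 and TMPRSS11E were 1.65-fold and 2.25-fold lower with CB, while PRSS23 was 2.12-fold higher with CB. Median log2 folds of the list were −0.41 with CB and −0.69 with S1650b. Of 9 caspases that passed, CASP1 and CASP9 were lower with CB, by 1.68-fold and 1.58-fold, and 0 were called with S1650b against the control.

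Other protease inhibitors were counted in the same way, beside the same shares of all genes. Of 15 serpins of other clades 7 passed the filter, with 2 higher and 1 lower with CB and 2 higher and 3 lower with S1650b. SERPINE2 was 2.20-fold higher with CB, and SERPINH1, a collagen chaperone with no inhibitor function, 1.97-fold lower with S1650b. Of 23 inhibitors that are not serpins 15 passed, with 1 higher and 3 lower with CB and 2 higher and 6 lower with S1650b. The elastase inhibitors PI3 and SLPI were 8.99-fold (5.81 to 14.5) and 4.83-fold (3.74 to 6.31) lower with S1650b, and the cystatin CSTA, a cathepsin inhibitor of the cornified envelope, was 2.12-fold lower. TFPI, an inhibitor of blood coagulation, and CAST, the inhibitor of calpains, were 2.14-fold and 1.65-fold higher with S1650b. TIMP3 was 2.23-fold lower with CB and 2.0-fold lower with S1650b.

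Among 21 tested transcription factors that are linked to SERPINB genes, 2 were higher and 3 lower with CB, against 4.7% and 10.7% of all genes. With S1650b 4 were higher and 5 lower, close to the shares of all genes (22.0% and 19.4%). The AP-1 subunit JUN was 2.88-fold higher with CB (2.67 to 3.11) and 3.15-fold higher with S1650b (2.93 to 3.40). FOSL1, another AP-1 subunit, was 3.96-fold higher with CB (3.70 to 4.25) and 1.80-fold higher with S1650b (1.67 to 1.94) than in the control, and 2.21-fold lower with S1650b than with CB. ELF3, an epithelial ETS factor, was 3.04-fold lower with CB and 2.14-fold lower with S1650b, and GRHL3, a factor of barrier formation, was 3.15-fold lower with S1650b. NFE2L2, which encodes NRF2, was 1.89-fold higher with S1650b than with CB. Of 12 receptors of cytokines that induce SERPINB genes, 0 were called with CB. With S1650b 3 were higher, IL6ST by 2.25-fold, OSMR by 1.77-fold and IL13RA1 by 1.64-fold, and TNFRSF1A was 1.58-fold lower.

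Ranges in log2 over the libraries were 2.14 for SERPINB3, 1.69 for SERPINB2, 1.55 for SERPINB7 and 1.44 for SERPINB13, but SERPINB3 passed the filter only in the library where it is highest, and the interval of its fold with S1650b is wide enough to span ranges of the size of the others. The genes nearest to SERPINB3 in the plane of its log2 folds against the control were LAMP3, CORO1A and TYMSOS, at distances of 0.06, 0.08 and 0.09 over 2 comparisons that share the control. LAMP3, a lysosomal membrane protein, had 91, 74 and 24 counts in the control, CB and S1650b, and CORO1A, an actin-binding protein, had 184, 158 and 46. TYMSOS had 43, 33 and 11 counts, and exons of other genes overlap 38.4% of it and 11.1% of CORO1A. SERPINB3 itself rests on 5 to 21 counts, so its place in that plane is loose.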

How the data were processed

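RNA of HaCaT cells was extracted with Trizol and made into NEBNext Ultra libraries, per the labels. The deposited count table holds whole-number counts per Ensembl gene, and a second deposited table holds the authors' FPKM. Deposited FPKM equalled the count divided by the GENCODE 29 exon length and 1 total per library, within 1% for 100% of genes with a count. CASAVA 1.7 and the mouse builds mm8 and mm9 appear in the submitters' processing notes, and mouse builds do not match human identifiers. Aligner, counter, build and strand setting were not given in the sources used here. Overlapping genes and the SERPINB3 and SERPINB4 pair are therefore uncertain. All 58735 identifiers occur in GENCODE 29 (GRCh38), which gave positions and lengths, and 58207 had a symbol.

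Totals were 20658247 (control), 20946139 (CB) and 20417744 (S1650b), with TMM factors of 0.952, 0.960 and 1.09 from edgeR 4.0.16 in R 4.3.3, computed on the 14709 genes that reached 1 CPM in any library. TMM over all genes was computed first and replaced by this before folds were reported. Folds are ratios of scaled CPM with exact 95% conditional binomial (Clopper-Pearson) intervals, and 0.5 counts were added before log2. Bounds against a library with 0 counts used a floor of 3 counts. Alternatives were total counts, DESeq2 1.42.0 median of ratios, upper quartile, FPKM with 0.1 added, no filter or 5 CPM, a fold of 2, 5 counts added, removal of trends with length or with length and GC (lowess, span 30%), and SERPINB3 and SERPINB4 summed. The fold rule and interval script was tested on simulated data. Python 3.11.15 with pandas 2.3.3, scipy 1.17.1, statsmodels 0.14.6, biopython 1.88 and matplotlib 3.10.9 was used.

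Named genes were the 10 members and SERPINB10, SERPINB11 and SERPINB12, up to 4 genes per companion list and comparison that passed the fold rule (ranked by the interval end nearest to 1), protein-coding genes that passed the filter within 500 kb of the clusters, the 3 genes nearest to the member of widest range, and cell type markers. The text names a part of these, and a few are not reported here. Members and lists were chosen with earlier results of these data known. The 4 promoter motifs, the sequence windows and the SERPINB7 start, the gene pairs set in ratio, the sums without SERPINB13 and the use of coding transcript length were chosen after the values were seen.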

Additional observations from a re-analysis of the deposited data

How the results depend on the processing

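With carbon black against the control, the 1 called SERPINB gene became 2 without the filter, where SERPINB4 was added as lower, 0 at a fold of 2, and 2 when SERPINB3 and SERPINB4 were summed, the sum being lower. Of 33 counts of called SERPINB genes under alternatives, 30 were within 1.5 times the value reported and 3 were not. With S1650b against the control the count ran from 3 to 6, with 6 when length and GC trends were removed, which added SERPINB5 and SERPINB6 as lower. Removing the length trend alone added SERPINB6 and dropped SERPINB7. SERPINB13 was higher and SERPINB2 lower with S1650b under every alternative tried, with log2 folds against the control from 0.67 to 1.31 for SERPINB13 and from −1.73 to −1.37 for SERPINB2. Log2 folds of genes that were not called changed sign for SERPINB1 and SERPINB8 (S1650b against the control), SERPINB6 (CB against the control), and SERPINB4 and SERPINB8 (S1650b against CB). No paired analysis was possible because each group holds 1 library, and for the same reason no library could be left out. Depth limits SERPINB3, SERPINB4 and SERPINB9, with 21 counts or fewer in each library.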
